A study of Mus musculus with 7 samples.

Results

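The genes described here encode the proteins of the mitochondrial ribosome, taken as every gene of the array annotation whose symbol starts with Mrpl or Mrps followed by a digit. The rule found 76 genes, 47 Mrpl and 29 Mrps, measured by 110 of the 25697 probes on the array. Of these, 97 probes were above background on at least 3 arrays, a detection p under 0.05 marking a signal above background, and they represented 70 genes among the 7547 genes tested. The tested members were 43 Mrpl and 27 Mrps genes. The other 6 genes, Mrpl19, Mrpl21, Mrpl32, Mrpl45, Mrps14 and Mrps36, had no probe above background on any of the 7 arrays, so their probes give only an upper bound.

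Mitochondria keep their own small genome, and the messenger RNAs it encodes for the respiratory chain are translated inside the organelle by a dedicated ribosome. All proteins of this ribosome are encoded in the nucleus, made in the cytosol and imported, and they join ribosomal RNAs encoded in mitochondrial DNA. The large subunit (Mrpl) forms peptide bonds and the small subunit (Mrps) decodes the messenger RNA. Many of the proteins have bacterial relatives, whereas others are found only in mitochondria. Erythroid progenitors depend on mitochondria for heme synthesis and for respiration before these organelles are lost from the maturing red cell.

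RNA came from megakaryocyte-erythroid progenitors, bone marrow cells that give rise to megakaryocytes and red cells, of female C57BL/6 mice. The labels describe 3 arrays as lacking SSB1 and SSB2 (the genes Nabp2 and Nabp1, which encode single-stranded DNA binding proteins) and 4 control arrays as wild type (WT). The cells had been sorted as low for lineage markers, CD34 and CD16/32, positive for c-Kit and negative for Sca-1. The sources used here do not give the age of the mice, how and when the genes were deleted, what the controls carried, or whether each array held the RNA of a single mouse or of a pool, so p-values measure only the spread between these arrays. In such bulk RNA, fewer cells of a type and less RNA per cell cannot be told apart.

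The knockout arrays were brighter, with a mean raw signal of 651 to 670 against 443 to 615 on the control arrays. Nabp2 was lower in the knockout, at -2.04 on the log2 scale (SE 0.186, adjusted p = 0.000203 in limma), and a second probe of the gene was at -0.95 (adjusted p over the kept probes = 0.00785). Both Nabp2 probes were still above background on all 3 knockout arrays, while Nabp1 could not be checked, its probe lying within background throughout. Markers of other cells differed between the groups. All 6 tested B-lineage genes were lower. Their summed normalized signal was 215 to 330 on the knockout and 958 to 2117 on the control arrays. Pax5, Blnk and Ms4a1 were not above background on any array. Cd79a was above background on 0 knockout arrays and Vpreb3, Ebf1 and Mzb1 on 1 each, against 4 control arrays. These genes passed the filter only through the controls, so their direction was partly set by the filter. Of 4 late erythroid genes 3 were lower, with sums of 2170 to 3423 against 5775 to 10651, and Epb42 was not above background. Of 9 neutrophil and monocyte genes 4 were higher and 1 was lower, with sums of 1838 to 3590 against 952 to 1949. Of 3 mast cell and basophil genes 2 were higher, with sums of 218 to 332 against 110 to 213, and 6 further markers of these cells were not above background. Of 6 megakaryocyte genes 2 were higher, with sums of 3170 to 3665 against 2333 to 4422, and the only tested T and NK cell gene was not called. Among the late erythroid genes Slc4a1 passed the filter only through the controls (1 knockout and 4 control arrays). Ms4a3 of the neutrophil and monocyte genes (3 and 0) and Gp1bb of the megakaryocyte genes (3 and 1) passed only through the knockout. Of 7 tested genes of the sort gate and of progenitor identity, Cd34 among them, 1 was higher and 0 lower. Their sums were 26940 to 28502 against 22271 to 28392. The gene that was higher was Gata2, a transcription factor of early progenitors, at 1.60 (adjusted p = 0.000812). Gata1 and Klf1, transcription factors of the erythroid lineage, were at -0.48 and -0.32 without a call (adjusted p = 0.0524 and 0.0522). Cd34, which the sort selected against, was above background on 2 knockout and 3 control arrays, and Fcgr3, which encodes CD16, on none. Array brightness was entered as a covariate, given below. All knockout arrays were brighter than all controls, so brightness and the knockout cannot be told apart. The part of other cell types in the values that follow was not tested.

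Mitochondrial ribosomal protein genes were mostly lower in the double knockout relative to the typical gene. Of 70 tested members, 22 fell and 1 rose (31.4% and 1.43%), against 12.8% lower and 14.4% higher among all 7547 genes, where a call is an adjusted p under 0.05 in limma. The share of all genes depended on the filter on dim probes. With detection p under 0.01 on all arrays, 25 of 69 members fell and 1 rose, beside 18.2% and 16.6% of 5597 genes. With no filter, 20 of 76 fell and 1 rose, beside 5.01% and 5.79% of 16593 genes. The median log2 change of the members was -0.29, with quartiles of -0.47 and -0.0912, whereas the median over all genes was 0.0114. Of the 70 members, 61 lay below the median of all genes. The values of the groups did not overlap for 37 members that were lower and 2 that were higher in the knockout, where such genes made up 18.1% and 20.3% of all genes tested.

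**Figure D1:**
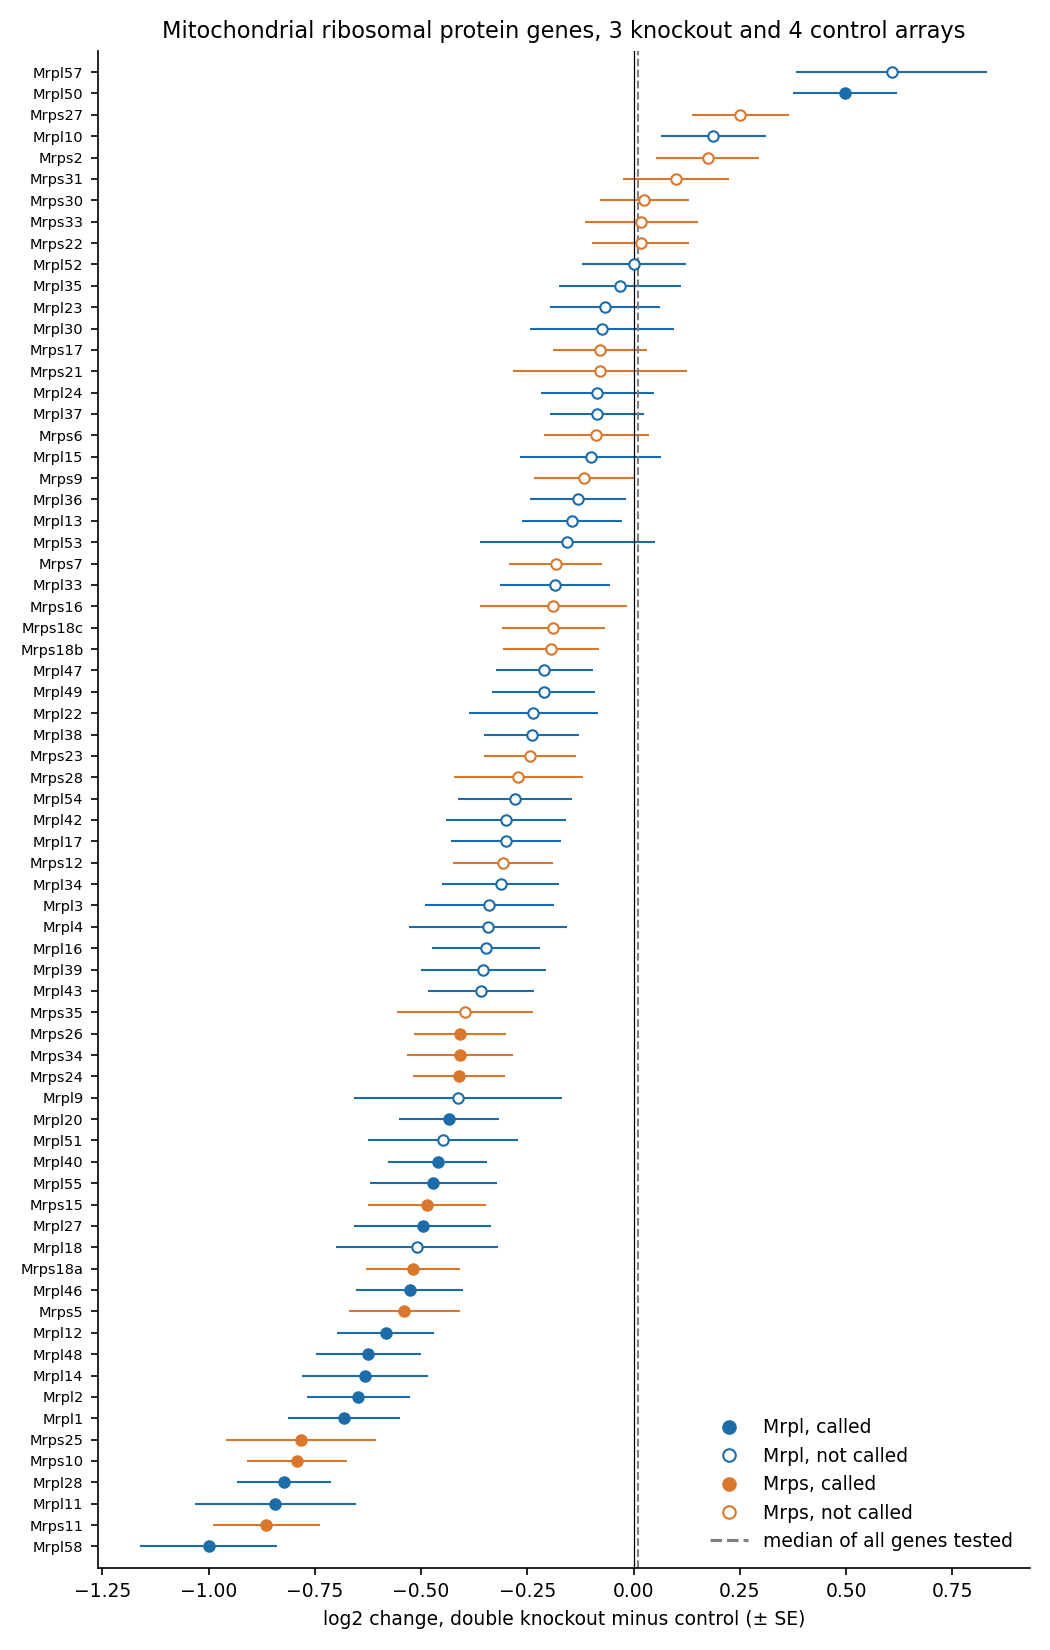
The log2 change (double knockout minus control, quantile normalization) of the 70 tested members is plotted with its standard error, Mrpl genes in blue and Mrps genes in orange, and filled points mark the 23 genes called at an adjusted p under 0.05. From Mrpl58 at -1.0 to Mrpl57 at 0.61, 61 members lie left of the dashed median of all genes, and under median scaling over all probes the median member change was instead 0.16.

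The direction in absolute terms depends on how arrays are set against each other. Quantile normalization gives all arrays the same distribution. When arrays were instead scaled to the same median over all probes, the median change of all genes was 0.52 and that of the members 0.16, with 9 members called higher and 1 lower, against 49.9% and 1.54% of all genes. When they were scaled to the median of probes detected on all arrays, the medians were -0.14 and -0.51, with 0 called higher in limma (1 at an unadjusted p under 0.05) and 35 lower, against 10.3% and 23.6% of all genes. Relative to the median of all genes the members stood at -0.30 after quantile normalization and at -0.36 after either scaling. The count of members below the median of all genes was 61 after quantile normalization and after either scaling. The scalings differ from each other only by a shift of all genes of an array. Their values relative to that median are therefore equal by construction. Rises and falls below are thus set against the typical gene, after quantile normalization unless stated. With the mean brightness of each array as a covariate 0 members were called in limma, 11 had an unadjusted p under 0.05, all of them lower, and the median change of the members was -0.20, with 0.689% of all genes called.

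**Figure D2:**
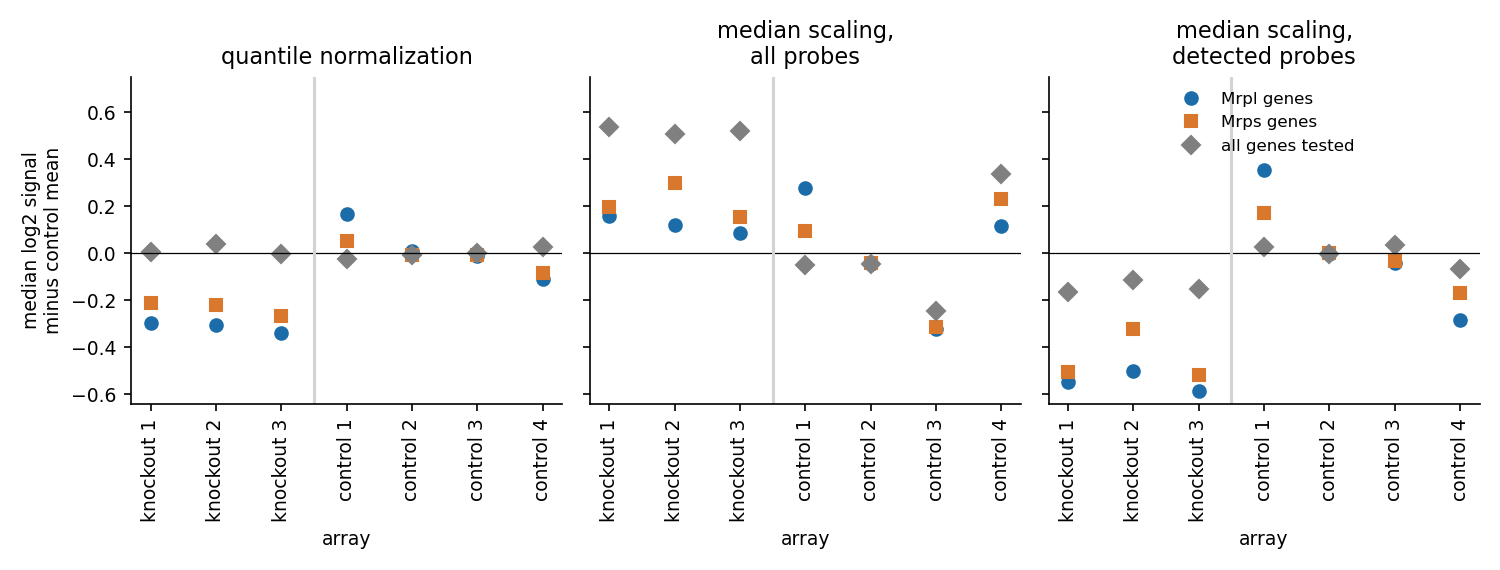
The median over Mrpl genes (circles), Mrps genes (squares) and all genes tested (diamonds) of the log2 signal minus the control mean is plotted for each array under quantile normalization and under both median scalings. On the 3 knockout arrays the medians of the ribosomal protein genes lie below that of all genes in every panel, while their sign relative to 0 turns positive under scaling to all probes. The scaling panels differ from each other only by a shift per array, so the order of the medians is the same in both by construction.

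The median member, taken over the 70 genes relative to the control mean, read -0.25, -0.29 and -0.32 on the 3 knockout arrays and 0.13, -0.00015, -0.0094 and -0.0918 on control arrays 1 to 4. The knockout arrays lay below all controls. Among the controls array 1, with a mean raw signal of 528, was the highest and array 4, the brightest at 615, was the lowest. The dimmest control, array 3 at 443, lay between them. Without control array 1 the median change was -0.22, with 19 members lower and 2 higher, beside 11.5% and 13.01% of all genes. Without knockout array 1 the number of members that fell was 12, and without knockout array 3 it was 11, while the share of all genes called lower was 6.82% and 6.70%.

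The largest fall among the members was that of Mrpl58, a protein of the large subunit related to release factors that frees peptides from stalled ribosomes. Its log2 signal was 8.66, 8.87 and 8.96 on the knockout arrays and 10.2, 9.68, 9.90 and 9.58 on the control arrays. The highest knockout array was below the lowest control, and the gene was 2.0-fold lower (log2 -1.0, SE 0.160, adjusted p = 0.00320).

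Mrps11, a small subunit protein with a bacterial relative, read 10.6, 10.6 and 10.8 on the knockout arrays against 11.7, 11.5, 11.6 and 11.4 on the control arrays. The groups were separated by more than the spread within either, and the difference was 1.82-fold (log2 -0.86, SE 0.126, adjusted p = 0.00219). A second Mrps11 probe gave -0.79 (adjusted p over the kept probes = 0.00877).

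Mrpl11, which sits at the base of the stalk where translation factors bind, read 9.55, 9.34 and 9.67 against 10.8, 10.4, 10.2 and 9.99. The lowest control, array 4, was above the highest knockout array, and the change was -0.84 (SE 0.190, adjusted p = 0.0121). Mrpl28, another large subunit protein with a bacterial relative, read 12.5, 12.5 and 12.6 against 13.4, 13.3, 13.4 and 13.4. Both groups were tight, at 12.5 ± 0.0602 (SD, n = 3) and 13.4 ± 0.0755 (SD, n = 4), and the gene was 1.77-fold lower (log2 -0.82, SE 0.110, adjusted p = 0.00148). Mrpl28 was the only member still called lower under median scaling over all probes, at -0.52 (adjusted p = 0.0499).

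Among small subunit genes, Mrps10 read 9.15, 9.14 and 9.02 on the knockout arrays and 9.80, 9.81, 10.1 and 9.91 on the control arrays, a change of -0.79 (SE 0.117, adjusted p = 0.00237). Mrps25, a protein of the small subunit without a bacterial relative, read 8.40, 8.14 and 8.66 against 9.57, 9.11, 9.01 and 9.05, a change of -0.78 (SE 0.177, adjusted p = 0.0122). Neither gene had overlapping groups, and the knockout arrays of Mrps25 were spread about as widely as its controls, at an SD of 0.262 against 0.257. Dimmer probes changed less. That of Mrps10 was at -0.35 and not called (adjusted p over the kept probes = 0.111). Those of Mrps25 were at -0.33, not called, and at -0.46, called lower (adjusted p over the kept probes = 0.103 and 0.0467).

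A single member rose. Mrpl50, a protein of the large subunit found only in mitochondria, read 11.8, 12.0 and 11.8 on the knockout arrays and 11.3, 11.4, 11.2 and 11.5 on the control arrays. All knockout arrays were above all controls, and the rise was 1.41-fold (log2 0.50, SE 0.123, adjusted p = 0.0174). With arrays scaled to detected probes it was at 0.26 and not called (adjusted p = 0.155), nor was it called without knockout array 2 (adjusted p = 0.0579) or 3 (adjusted p = 0.0610). Mrpl57 had a larger change of 0.61, with knockout values of 6.77 to 7.09 and control values of 5.89 to 6.86 that overlapped, and was not called (adjusted p = 0.0724).

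**Figure D3:**
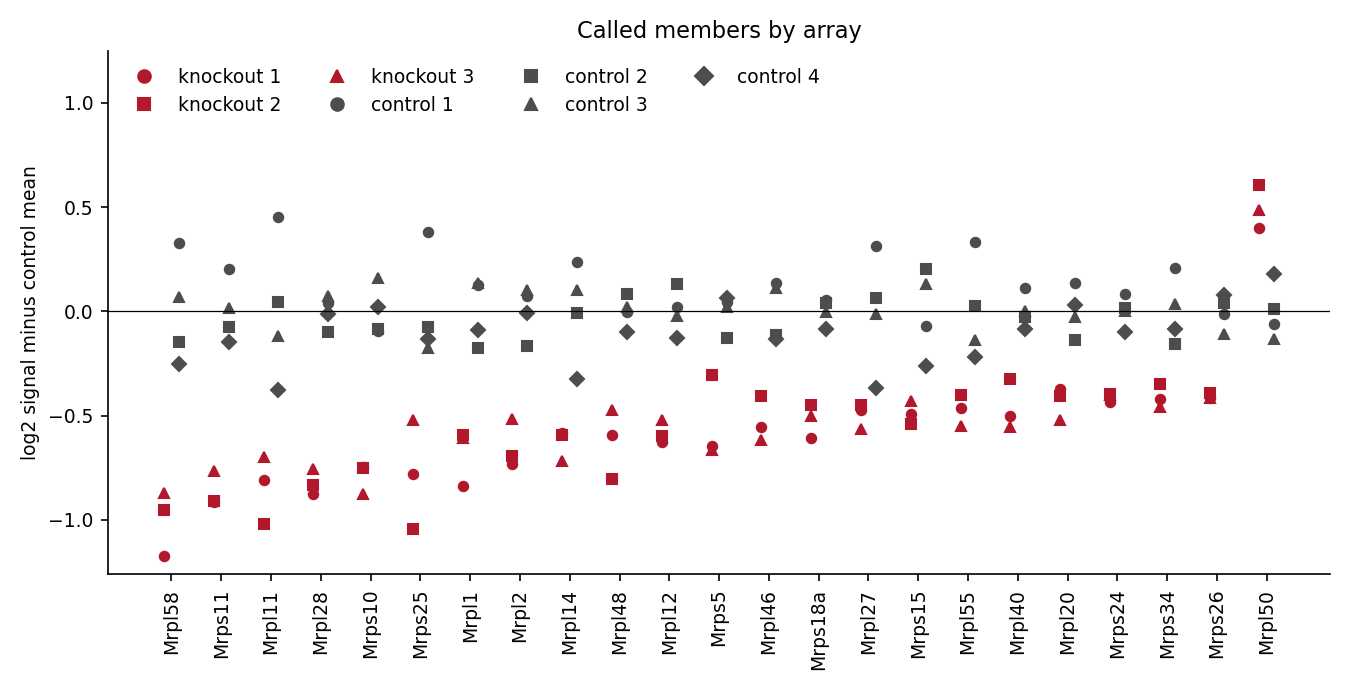
The log2 signal minus the control mean is plotted for the 23 called members on each array, knockout arrays in red and controls in grey, with the marker shape giving the replicate number. The 3 knockout arrays lie below all 4 controls for each of the 22 genes that fell after quantile normalization and above them for Mrpl50. The genes shown were called on these same arrays, so their separation is no separate support. The signs of Mrps5, Mrps15 and Mrpl55 turned under median scaling over all probes.

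The other falls were spread over functional parts of both subunits. In the large subunit they included Mrpl1 of the mobile stalk near the exit of transfer RNA (-0.68, adjusted p = 0.00680), Mrpl2 close to the peptidyl transferase centre (-0.65, adjusted p = 0.00613), Mrpl14 at the face that meets the small subunit (-0.63, adjusted p = 0.0143) and Mrpl12 of the stalk that recruits translation factors (-0.58, adjusted p = 0.00721). Mrpl10, which anchors Mrpl12 to the large subunit, was at 0.19 (SE 0.124, adjusted p = 0.283), so the stalk components Mrpl11 and Mrpl12 fell while Mrpl10 was not called, and the difference between them was not tested. Mrpl27 (-0.50), Mrpl55 (-0.47) and Mrpl20 (-0.43), all with bacterial relatives, fell as well, as did Mrpl48 (-0.62), Mrpl46 (-0.53) and Mrpl40 (-0.46), which are particular to mitochondria. In the small subunit Mrps5 (-0.54), Mrps15 (-0.49) and Mrps24 (-0.41) have bacterial relatives, and Mrps34 and Mrps26 (both -0.41) do not.

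Calls differed in how far they rested on single arrays. Of the 22 falls, 11 were called whichever array was left out, those of Mrpl58, Mrps11, Mrpl11, Mrpl28, Mrps10, Mrps25, Mrpl1, Mrpl2, Mrpl48, Mrpl12 and Mrps18a. Mrpl27 and Mrpl55 were called in 1 of the 7 fits that left out an array, and Mrps15 and Mrps34 in 2. The groups did not overlap for any of the 22, but the calls came from the same arrays, so this adds no separate support. Over all genes tested 18.1% were lower without overlap.

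Genes of both subunits were among those that fell, and the difference between the subunits was not tested. Of 43 tested Mrpl genes 13 fell and 1 rose (30.2% and 2.33%), and of 27 tested Mrps genes 9 fell and 0 rose (33.3%), beside 12.8% lower and 14.4% higher over all genes. The median log2 change was -0.31 for Mrpl and -0.19 for Mrps genes, a difference of -0.12. Below the median of all genes lay 40 of 43 Mrpl and 21 of 27 Mrps genes. On each array the Mrpl median minus the Mrps median was -0.0863, -0.0840 and -0.0754 in the knockout and 0.116, 0.0160, -0.00268 and -0.0259 in the controls. The controls ranged more widely than the distance between the groups. The difference of medians was -0.0509 under either median scaling, the same by construction, and -0.0356 when the probes of a gene were averaged.

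**Figure D4:**
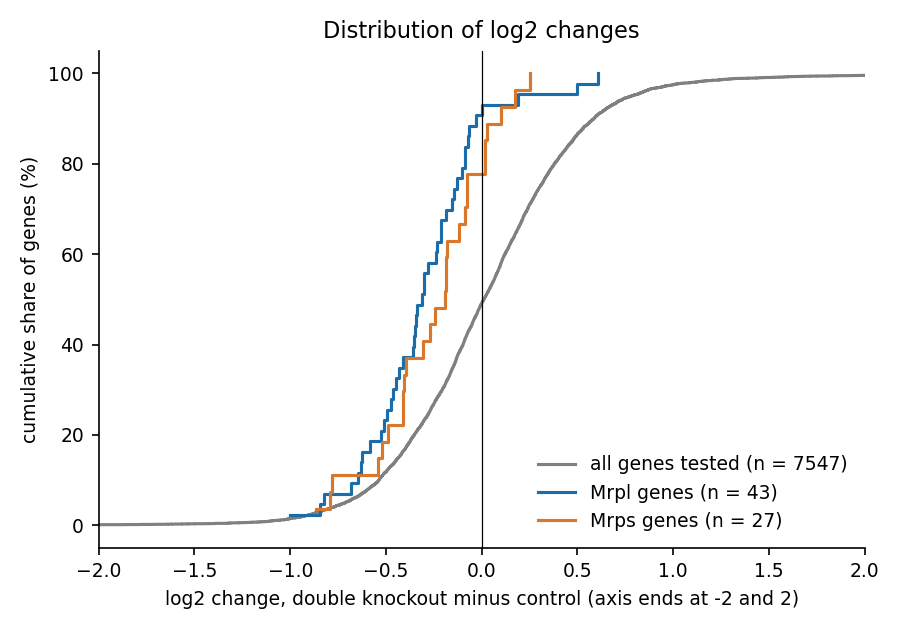
The cumulative share of genes is plotted against the log2 change (double knockout minus control, quantile normalization) for all 7547 genes, 43 Mrpl and 27 Mrps genes. Both subunit curves lie left of the grey curve over most of the range, with medians of -0.31, -0.19 and 0.0114, and under median scaling over all probes the subunit medians were 0.15 and 0.20 against 0.52.

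The symbols do not always give the place in the particle. In the mammalian mitoribosome the products of Mrps30 and Mrps18a sit in the large subunit, and Mrps36 encodes a protein of the oxoglutarate dehydrogenase complex. By place, 14 of 45 large subunit genes fell and 1 rose (31.1% and 2.22%), and 8 of 25 small subunit genes fell and 0 rose (32% fell). The medians were the same, at -0.31 and -0.19. Over all genes 12.8% were lower and 14.4% higher. Mrps30, at 0.0255 (SE 0.105, adjusted p = 0.868), was not called, with knockout values of 11.9 on all 3 arrays and controls of 11.8 to 11.9. By descent, 15 of 44 genes with bacterial relatives fell (34.1%) and 0 rose. Of 26 genes particular to mitochondria 7 fell and 1 rose (26.9% and 3.85%). The medians were -0.30 and -0.26. The median changes of both classes thus lay below that of all genes, and the difference between the classes was not tested.

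The paralogs Mrps18a, Mrps18b and Mrps18c descend from a common bacterial small subunit protein. Mrps18a read 10.96, 11.1 and 11.1 on the knockout arrays against 11.6, 11.6, 11.6 and 11.5 on the controls, a change of -0.52 (SE 0.110, adjusted p = 0.00980). Mrps18b was at -0.19 (SE 0.113, adjusted p = 0.226) and Mrps18c at -0.19 (SE 0.122, adjusted p = 0.272) on their brightest probes. A dimmer Mrps18b probe was called lower at -1.10 with an SE of 0.182 (adjusted p over the kept probes = 0.00393), so the paralogs cannot be ordered from these probes.

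Other probes of the same genes were often lower too. Of the 97 kept probes 35 fell and 1 rose, beside 12.7% lower and 13.3% higher among all 10091 kept probes. Of 21 genes with several kept probes, the 27 probes other than the brightest held 14 that fell and 0 that rose, and 16 of the 27 changed further downward than the brightest probe of their gene. The opposite sign to the brightest probe was seen for 5 of the 27. In the fit over probes Mrpl27 was no longer called (adjusted p over the kept probes = 0.0516), which left 21 of the 22 falls. Counting any probe, 28 genes fell there, and the 7 added in this way were Mrpl13, Mrpl37, Mrpl43, Mrpl49, Mrps7, Mrps18b and Mrps31. Genes with several probes have more chances of a call under this rule, and the share of all genes under it was not determined. For Mrpl49 the brightest probe was at -0.21 (adjusted p over the kept probes = 0.238) while 2 dimmer ones fell, by 0.97 and 0.95 (adjusted p over the kept probes = 0.028 and 0.00964). For Mrps31 the brightest probe was at 0.0992, another at -0.0823, and the last of them fell by 0.96 (adjusted p over the kept probes = 0.0142). The 3 kept probes of Mrpl48 all fell, by 0.62, 0.99 and 1.07.

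**Figure D5:**
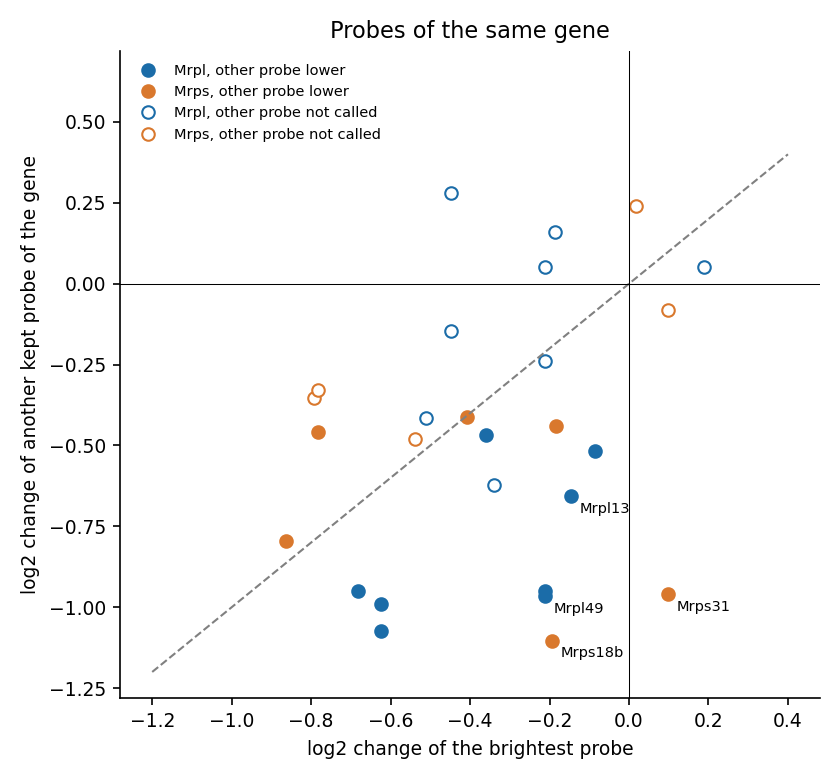
The log2 change of each of 27 other kept probes is plotted against that of the brightest probe of its gene, filled where the other probe was called lower, with a dashed line of equality. The 16 points below the line changed further downward than the brightest probe, among them those of Mrps18b, Mrps31, Mrpl49 and Mrpl13 after quantile normalization, and no probe of the 97 was called lower under median scaling over all probes.

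Promoter windows, the 250 bases before the start of transcription, were examined because most tested members lay below the median of all genes. RefSeq (GRCm38.p6) held windows for 67 of the 76 members. Motifs were searched on both strands: the NRF1 consensus, CCGGAAG for GABPA, AAGATGGC for YY1, CACGTG (the E-box bound by Myc), CCAAT and GGGCGG (bound by SP1). Of these NRF1 and GABPA are known regulators of nuclear genes for mitochondrial proteins. The windows shown are those of the gene with the largest fall (Mrpl58), of Mrps11, of Mrpl2, which holds the most matches of those shown, and of the gene that rose (Mrpl50). Matches are in capitals and each window is read 5′ to 3′ on the strand of the gene. Mrpl46 starts 42 bases before Mrps11 on the other strand, so most of the Mrps11 window, with its YY1 match, lies within the transcribed part of Mrpl46.
Mrpl58, chr11:115403502-115403751, plus strand: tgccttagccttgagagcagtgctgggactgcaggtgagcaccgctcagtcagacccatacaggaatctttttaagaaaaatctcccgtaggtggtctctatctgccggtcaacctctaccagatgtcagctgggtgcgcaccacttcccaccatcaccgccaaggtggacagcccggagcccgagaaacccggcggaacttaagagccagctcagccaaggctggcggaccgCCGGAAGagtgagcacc
Mrps11, chr7:78782881-78783130, plus strand: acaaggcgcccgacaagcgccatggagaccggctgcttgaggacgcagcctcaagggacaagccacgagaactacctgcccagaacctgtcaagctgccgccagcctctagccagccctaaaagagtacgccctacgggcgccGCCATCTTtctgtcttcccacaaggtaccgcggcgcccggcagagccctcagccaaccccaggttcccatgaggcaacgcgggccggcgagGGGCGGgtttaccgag
Mrpl2, chr17:46645971-46646220, plus strand: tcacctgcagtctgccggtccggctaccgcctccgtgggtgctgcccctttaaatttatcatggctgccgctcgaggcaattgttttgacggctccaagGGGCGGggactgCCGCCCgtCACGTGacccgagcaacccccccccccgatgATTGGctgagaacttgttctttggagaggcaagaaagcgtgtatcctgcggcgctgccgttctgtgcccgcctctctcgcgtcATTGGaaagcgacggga
Mrpl50, chr4:49521084-49521333, minus strand: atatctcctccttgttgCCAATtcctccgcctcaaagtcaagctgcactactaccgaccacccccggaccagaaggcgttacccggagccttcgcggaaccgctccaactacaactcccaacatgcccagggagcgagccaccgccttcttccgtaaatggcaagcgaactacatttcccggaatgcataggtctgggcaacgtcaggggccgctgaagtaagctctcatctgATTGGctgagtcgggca
The match in Mrpl58 is that of GABPA, those in Mrps11 are of YY1 and SP1, those in Mrpl2 of SP1, the E-box and CCAAT, and those in Mrpl50 of CCAAT on both strands.

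The GABPA letters were present in 17 of the 67 member windows (25.4%), against 15.6% of the windows of 6256 tested genes and 9.13% of 17492 protein-coding genes. The NRF1 letters were present in 9 (13.4%), against 9.38% and 5.30%. The 67 member windows include some of members that were not tested, so the shares of tested genes are not a like set. Among members that fell, 4 of 21 windows held the GABPA letters and 1 of 21 those of NRF1, and among other tested members the counts were 13 of 41 and 6 of 41. The YY1 letters were in 4 of 67 windows (5.97%, against 2.35% of tested genes), the E-box in 5 (7.46%, against 8.78%), CCAAT in 24 (35.8%, against 37.5%) and the SP1 letters in 33 (49.3%, against 59.6%). Member windows had a median GC content of 58.4% and those of tested genes 59.6%. These are counts of letters and say nothing about binding.

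Several members start close to a gene on the other strand. Within 1000 bases, 22 members had a protein-coding neighbour transcribed away from them, forming 21 pairs, of which 15 had both genes tested. Mrps11 and Mrpl46 start 42 bases apart and both fell, by 0.86 and 0.53. Mrpl50 starts 93 bases from Zfp189, a zinc finger gene, and both rose, by 0.50 and 0.72 (adjusted p = 0.0174 and 0.0326). In the other pairs the genes were not called in the same direction. Cyb5rl at -0.90 (adjusted p = 0.00841) and Sars2, the mitochondrial seryl-tRNA synthetase, at -0.71 (adjusted p = 0.0135) were lower while their neighbours Mrpl37 and Mrps12 were at -0.0861 and -0.31 without a call. Of 5 pairs with a member that fell and a tested neighbour, the neighbour also fell in 1, that of Mrps11 and Mrpl46, and the median change over the neighbours of all 15 pairs was 0.0189.

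Other genes of mitochondrial translation were taken from lists of known components, whose counts stand beside 12.8% lower and 14.4% higher among all genes. Of the 4 mitoribosomal proteins with other symbols that were tested, 0 were called in limma and 0 had an unadjusted p under 0.05. Dap3, a small subunit protein that binds GTP, was at -0.21 (SE 0.143, adjusted p = 0.307), and the small subunit protein Chchd1 at -0.16 (SE 0.108, adjusted p = 0.306). Of 19 factors that assemble or modify the mitoribosome, 7 fell and 2 rose, with a median of -0.25. Mrm2, which methylates the large ribosomal RNA, was at -0.71 (adjusted p = 0.0285), Mpv17l2, an inner membrane protein needed for assembly, at -0.65 (adjusted p = 0.00531), and the GTPases Mtg1 and Mtg2 of large subunit assembly at -0.52 and -0.44 (adjusted p = 0.0281 and 0.0402). The other factors that fell were Rpusd4 (-0.44), Ddx28 (-0.42) and Rbfa (-0.36), and the pair that rose was Nsun4 (0.44) and Eral1 (0.41). These were named after their values were seen. Without background correction Mrm2 and Mtg2 were at -0.20 and -0.22 and were not called (adjusted p = 0.0923 and 0.0559).

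Of 14 translation factors 4 fell and 0 rose, with a median of 0.0279. Mtif3, the initiation factor that acts on the small subunit, was at -1.0 (SE 0.144, adjusted p = 0.00204), reading 7.42 ± 0.161 (SD, n = 3) in the knockout and 8.42 ± 0.193 (SD, n = 4) in controls. The ribosome recycling factor Mrrf was at -0.90 (adjusted p = 0.0133), Taco1, an activator of translation of a respiratory chain messenger RNA, at -0.69 (adjusted p = 0.0150), and the release factor Mtrf1 at -0.51 (adjusted p = 0.0159). The elongation factors Tufm (-0.12), Tsfm (-0.0578) and Gfm1 (0.21), named after their values were seen, were not called.

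Of 9 genes for transcription and upkeep of mitochondrial DNA 1 rose and 0 fell, and of 7 nuclear regulators 1 rose and 0 fell, shares of rises near that of all genes. The medians were 0.17 and -0.22. The first was Polg, the mitochondrial DNA polymerase, at 0.74 (SE 0.198, adjusted p = 0.0237). The other was Myc, a transcription factor that drives growth, at 0.85 (SE 0.255, adjusted p = 0.0346), which was above background on 1 of 4 control arrays, where its mean was 5.21 against 6.06 in the knockout. Without background correction it was at 0.26 and was not called (adjusted p = 0.0589). Nrf1, named after its value was seen, was at -0.39 (SE 0.129, adjusted p = 0.0517) and Gabpa at -0.22 (adjusted p = 0.226). Of the 53 genes tested on these 5 lists 11 fell and 4 rose. Under median scaling over all probes 0 were lower and 21 higher, where 1.54% and 49.9% of all genes were. Without knockout array 1 the counts were 3 lower and 0 higher, where 6.82% and 8.76% of all genes were, and without knockout array 3 they were again 3 and 0, where 6.70% and 8.08% were.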

How the data were processed

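Biotin-labelled RNA of 3 double knockout and 4 control samples was hybridised to 1-colour Illumina mouse bead arrays. The deposited signal table holds, per probe and array, an intensity that is not normalized and a detection p-value, and per the submitters' processing notes the authors used GenomeStudio (version not given in the sources). The deposited processed table holds log2 values that follow the quantile-normalized log2 signals (median correlation per probe 0.99996), with column medians of 0.00164 to 0.00513. Its baseline is unknown, and it was used as an alternative.

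Signals were background-corrected from the detection p-values with an offset of 16, quantile normalized and log2 transformed (neqc in limma 3.58.1, R 4.3.3). A probe was kept with a detection p under 0.05 on at least 3 arrays, which left 10091 of 25697 probes. Of all probes 23978 carried 1 gene symbol, 0 several and 1719 none. The brightest kept probe by mean stood for a gene, and dimmer probes were tested in a fit over all kept probes. Groups were compared with limma (lmFit and eBayes, two-sided, no covariate), with Benjamini-Hochberg adjustment over all 7547 genes or all kept probes and a threshold of 0.05. The procedure was tested on simulated data. The number of arrays limits the precision.

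Alternatives were no background correction, both median scalings, the processed table, no filter and a stricter filter on dim probes, averaging the probes of a gene, robust fitting with a variance trend, array weights, array brightness as a covariate, the replicate number as a block, subunit by place, probes in place of genes, and leaving out each array. All called members are named, with array values for the largest changes, as are Mrps18a, Mrps18b, Mrps18c, Mrps30, Mrps36, Mrpl10, Mrpl12 and Mrpl58 whatever their change, and up to 4 called genes of each list of other genes (or the 2 with the smallest p where none was called). Levels of different probes were not set against each other, so the members with the highest level, which the rule also held, are not listed. The members and lists were chosen with earlier results of these data known. Motifs were counted in RefSeq promoter windows of GRCm38.p6.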

Additional observations from a re-analysis of the deposited data

How the results depend on the processing

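The counts of calls and the median of the members changed with scaling and with array brightness, and the cause was not tested. Under median scaling over all probes the median change of the members was 0.16, 9 members were higher and 1 lower, 13 member probes were higher and 0 lower, and of the genes of the other 5 lists 21 were higher and 0 lower. The sign then turned for 41 of the 70 members, and among the genes named by rule for Mrps5 (0.14), Mrps15 (0.12), Mrpl55 (0.0095), Mrps18b (0.24), Mrps18c (0.15), Chchd1 (0.039), Dap3 (0.087), Mtg1 (0.092), Mtg2 (0.18) and Mtrf1 (0.097). Under scaling over detected probes the median was -0.51, with 0 members higher and 35 lower and 0 probes higher, and the sign turned for 6 members, among those named by rule for Mrps30 (-0.25) and Mrpl10 (-0.014). When array brightness entered as a covariate, the members' median was -0.20, and 0 members, 0 member probes and 0 genes of the other lists were called in either direction, while the median standard error over genes rose from 0.151 to 0.259. With array weights 2 members were higher and 24 lower, beside 17.3% and 16.3% of all genes, and 2 member probes were higher. Counting probes in place of genes gave 35 lower. The difference between subunits, -0.12 in the report, was -0.051 under either median scaling, the same by construction, and -0.036 when the probes of a gene were averaged.

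Leaving out 1 array gave 11 to 25 members lower and 0 to 2 higher. The shares of all genes also moved in these fits, from 6.70% to 11.9% lower and from 8.08% to 13.5% higher. Of member probes 19 to 34 were lower and 0 to 2 higher. The other lists held 3 to 9 genes lower and 0 to 4 higher. The members' median was -0.33 to -0.22 and the subunit difference -0.14 to -0.047. All 23 called members kept their call and direction with array weights, the stricter filter, averaged probes, no background correction, the processed table, the variance trend with robust fitting, and without control array 4. The replicate numbers did not pair the arrays, with correlations of deviations of -0.17, -0.016 and 0.028 for equal numbers, and not every array was closest to its own number. With the replicate number as a block 14 members were lower (8.36% of all genes), 22 probes were lower, and the other lists held 2 higher and 4 lower.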

Other observations

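The counts of members that fell are given by chromosome for those with 6 or more tested members, which was chosen after the values were seen, and without a test. On chromosome 17, 6 of 8 tested members fell, with a median change of -0.58, where 17.2% of 407 tested genes of that chromosome were lower. On chromosome 11 the count was 5 of 10, where 15.03% of 672 genes were lower. On chromosome 7 it was 3 of 6, where 18.4% of 610 genes were lower. On chromosome 6 it was 1 of 6, where 10.4% of 386 genes were lower. Under median scaling over all probes 1 member in all was called lower.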
